A study of Homo sapiens with 26 samples.

Results

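The integrated stress response effectors are 10 genes, taken by symbol from the count table of HCT116 colon carcinoma cells and their knockout sublines. They are ATF4, CEBPG, DDIT3 (CHOP), ATF3, TRIB3, ASNS, CHAC1, DDIT4 (REDD1), SESN2 and STC2. All 10 were found among 58039 genes, each as 1 row, and all 10 were among the 17198 genes with enough counts to be tested. The table covers 26 libraries in 9 groups, all from HCT116 or sublines of it grown as attached cells in DMEM with serum. The control cells (n = 3) are labelled as HCT116 control cells. Sublines edited by CRISPR lack CDK8 (CDK8KO), CDK19 (CDK19KO) or both (DKO) per the labels, each as sublines C1 and C2 with 3 libraries. JQ1, which displaces BET bromodomain proteins from acetylated chromatin, was given to control cells (n = 3) and to DKO-C1 (n = 2). The labels used here name no vehicle for untreated cells and no dose or time for JQ1. CDK8 and CDK19 are alternative kinase subunits of Mediator, the complex between enhancer-bound factors and RNA polymerase II.

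In the integrated stress response, kinases that sense amino acid shortage, misfolded protein in the endoplasmic reticulum, haem shortage or viral RNA phosphorylate the initiation factor eIF2. Bulk translation then slows, while the ATF4 message is translated more, so that the ATF4 protein can rise with no change in its RNA. ATF4 binds C/EBP-ATF response elements as a dimer with C/EBP family members and turns on genes for amino acid supply, redox balance and, under lasting stress, cell death. The measurements here are of RNA alone, and phosphorylated eIF2 and ATF4 protein were not measured.

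Promoters of the 10 genes were searched for the core of that response element, TGATGNAA, because it is the sequence through which ATF4 is known to act. RefSeq windows of 300 bases (250 before to 50 after the start, build GRCh38.p14) were at hand for 10 of 10 genes. The core stood on either strand in the windows of 4 of the 10, beside 4.46% of 27305 genes. The 4 sites are printed below with 11 bases on each side, 5′ to 3′ along the gene, with the core in capitals. The ASNS core is the one known as the nutrient-sensing response element, and the CHAC1 core lies on the opposite strand and so reads TTGCATCA.
CEBPG: cgcgcggcgtcTGATGCAAcctgccggcaa
ATF3: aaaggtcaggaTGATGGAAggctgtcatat
ASNS: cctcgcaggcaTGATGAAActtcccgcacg
CHAC1: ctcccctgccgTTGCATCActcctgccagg
These lie at chr19:33374060-33374089 (plus strand), chr1:212565205-212565234 (plus strand), chr7:97872458-97872487 (minus strand) and chr15:40953251-40953280 (plus strand). Counted from the RefSeq start of the window that held it, the core began at -42 in CEBPG, -191 in ATF3, -68 in ASNS and -209 in CHAC1. CEBPG, ATF3 and ASNS each had another RefSeq start, whose window held no core. In CEBPG the core lay after that other start. By the gene limits of GENCODE v29, the cores of CEBPG, ASNS and CHAC1 lie inside the gene. The endoplasmic reticulum stress element, through which ATF6 acts, was in the window of 0 of the 10 and of 0.0916% of all genes. A match is a description of the letters, and its absence from a window of this length says nothing of sites elsewhere.

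Libraries held 17700864 to 19093094 gene counts. Summed markers of colon epithelium ran from 3929 to 7588 CPM (the reads of a gene over the effective total of its library, on the usual scale) in every library, against 13.8 to 31.5 CPM for fibroblast, 0 to 0.774 for leukocyte and 0 to 0.987 for endothelial markers. CDK8 RNA was at 50.1 to 52.2 CPM in control, 43.6 to 48.3 in CDK8KO and 35.4 to 40.4 in DKO. CDK19 RNA was at 24.4 to 29.9 CPM in control, 17.5 to 26.9 in CDK19KO and 31.8 to 41.3 in DKO. The edited sites are not in the labels, so RNA of either gene checks no knockout. The labels do not say that the replicates are separate cultures, so each p-value measures only the spread between these libraries. For a genotype, the SE and p-value rest on the spread of libraries within each subline. The spread between sublines C1 and C2 is not in them. As the RNA is from bulk cultures, fewer cells of a kind and less RNA per cell cannot be told apart.

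The 8 DKO libraries, with or without JQ1, stood apart from the other 18. Processed pseudogenes, which are copies of spliced messages, held 0.182% to 0.208% of their gene counts, against 2.24% to 2.76% in the others. Of 1346 tested processed pseudogenes, 1172 were called lower and 27 higher in DKO against control, with a median log2 fold change of -3.90. Library handling and genotype therefore cannot be told apart in any comparison of DKO with other cells. With protein-coding genes alone in the fit, no member's log2 fold change in the 9 main comparisons moved by more than 0.0536 on the log2 scale. Counts of ATF4 together with its 4 pseudogenes gave a log2 ratio to control of -0.495 in DKO-C1 and -0.729 in DKO-C2, beside -0.488 and -0.721 for ATF4 alone. Comparisons inside the DKO libraries do not cross this divide: for JQ1 in DKO-C1, 46 processed pseudogenes were called higher and 52 lower.

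The ERCC spike-ins, RNAs of known amount added to a sample, took different shares of the counts in different groups. They took 1.15% in control, 2.58% and 2.78% in CDK8KO, 3.88% and 3.26% in CDK19KO, 2.33% and 2.00% in DKO, and 1.42% and 2.74% with JQ1 in control and DKO-C1. The labels name the spike-in for 14 samples and not for the 12 single knockouts. Scaled by them, the median gene moved to -1.23 in CDK8KO, -1.67 in CDK19KO, -0.92 in DKO and -0.39 for JQ1 in control, and to -0.27 for JQ1 in DKO-C1. Calls over all genes went from 3359 higher and 3609 lower to 55 and 16222 in CDK8KO, from 3612 and 3779 to 34 and 16821 in CDK19KO, and from 5067 and 5519 to 585 and 14333 in DKO. They went from 4637 and 5000 to 801 and 7666 for JQ1 in control, and from 4279 and 4363 to 923 and 4941 for JQ1 in DKO-C1. For CDK8KO against CDK19KO they went from 4064 and 4031 to 12156 and 421, for the excess over the sum from 5045 and 5132 to 15484 and 1037, for DKO-C1 under JQ1 from 4176 and 3860 to 328 and 13566, and for the JQ1 difference from 670 and 808 to 83 and 59.

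In control cells ATF4 was by far the most abundant of the 10 per length, at 203 CPM per kilobase of exon. STC2 and TRIB3 followed at 27.4 each, CEBPG at 21.8 and DDIT4 at 15.5. DDIT3, SESN2 and CHAC1 stood at 12.0 each, ATF3 at 3.26 and ASNS at 1.68. ASNS was counted in 26 to 357 reads a library, so its values carry the widest counting error. Some of the 10 share exons with other genes, and how such reads were counted, and whether by strand, is not given. ASNS shares 44.6% of its exonic bases with AC079781.5 on its own strand, DDIT3 shares 27.2% with MARS on the opposite strand, and DDIT4 shares 41.2% with DDIT4-AS1, which had 0 counts in every library. Values of ASNS, DDIT3 and DDIT4 are uncertain to that extent.

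**Figure D1:**
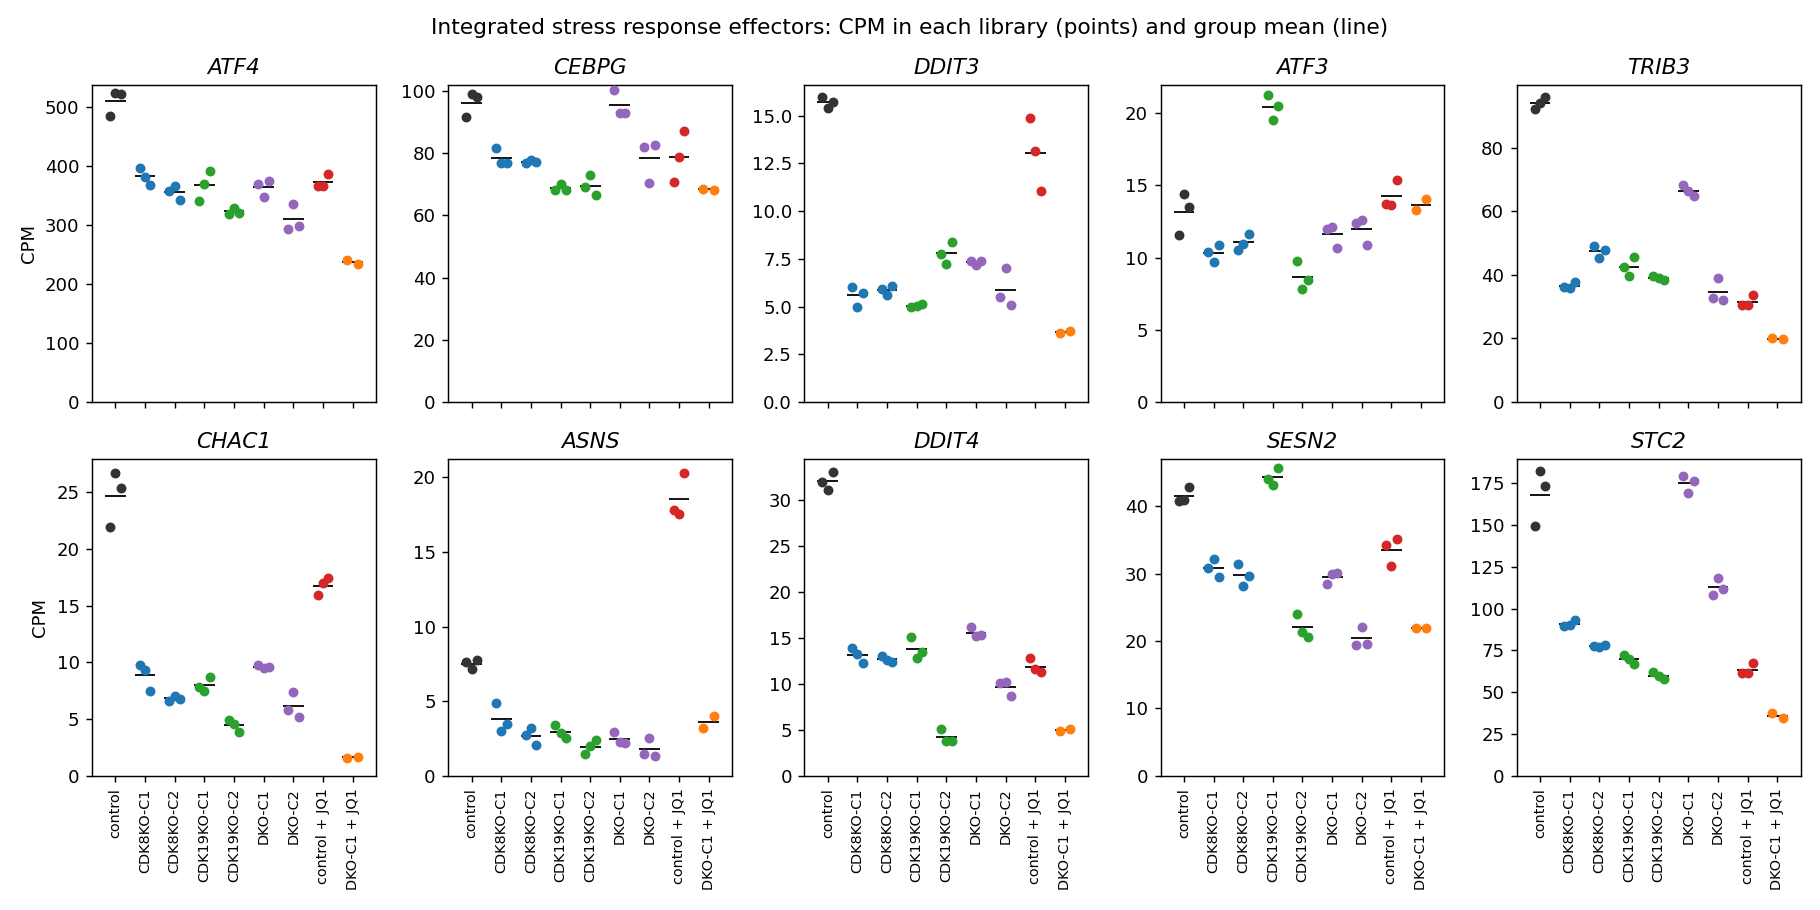
Level of each of the 10 genes in CPM (vertical axis, from 0) in each library (points), with the group mean (line), for the 9 groups. For ATF4, DDIT3, TRIB3, CHAC1 and DDIT4 the 3 control libraries lie above all others. ASNS is highest in control cells with JQ1, and ATF3 in CDK19KO-C1.

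Knockout of either Mediator kinase went with lower RNA of nearly the whole group. In CDK8KO 10 of 10 were called lower and 0 higher, with a median log2 fold change of -1.09, where 21.0% of all tested genes were called lower, 19.5% higher and 40.5% in either direction, and the median gene stood at -0.02. In CDK19KO 9 were called lower and 0 higher (median -1.27), where 22.0% of all genes were called lower, 21.0% higher and 43.0% in either direction. In DKO 9 were called lower and 0 higher (median -0.87), where 32.1% of all genes were called lower, 29.5% higher and 61.6% in either direction. The exception in the last 2 was ATF3. These comparisons share the 3 control libraries, so a control value that was off by chance would move all of them.

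With each subline tested alone, 54 of the 60 tests of a member against control were called lower, 1 was called higher and 5 were not called. All 10 were called lower in CDK8KO-C1, CDK8KO-C2 and CDK19KO-C2, 9 in DKO-C2, 8 in CDK19KO-C1 and 7 in DKO-C1. The share of all tested genes called lower in these was 19.4%, 17.2%, 20.6%, 30.5%, 24.0% and 28.9% in that order, the share called higher 19.8%, 16.8%, 21.8%, 28.4%, 22.1% and 27.0%, and the share called in either direction 39.2%, 34.0%, 42.4%, 58.9%, 46.1% and 55.9%. ATF4, DDIT3, TRIB3, CHAC1, ASNS and DDIT4 were called lower in every subline. CEBPG and STC2 missed the call in DKO-C1, SESN2 in CDK19KO-C1 and ATF3 in both DKO sublines, while ATF3 was called higher in CDK19KO-C1. With ERCC scaling 10 of 10 members were called lower in each genotype and in each of the 6 sublines, as were 13089 to 16765 of all tested genes in a subline, against 42 to 766 called higher.

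**Figure D2:**
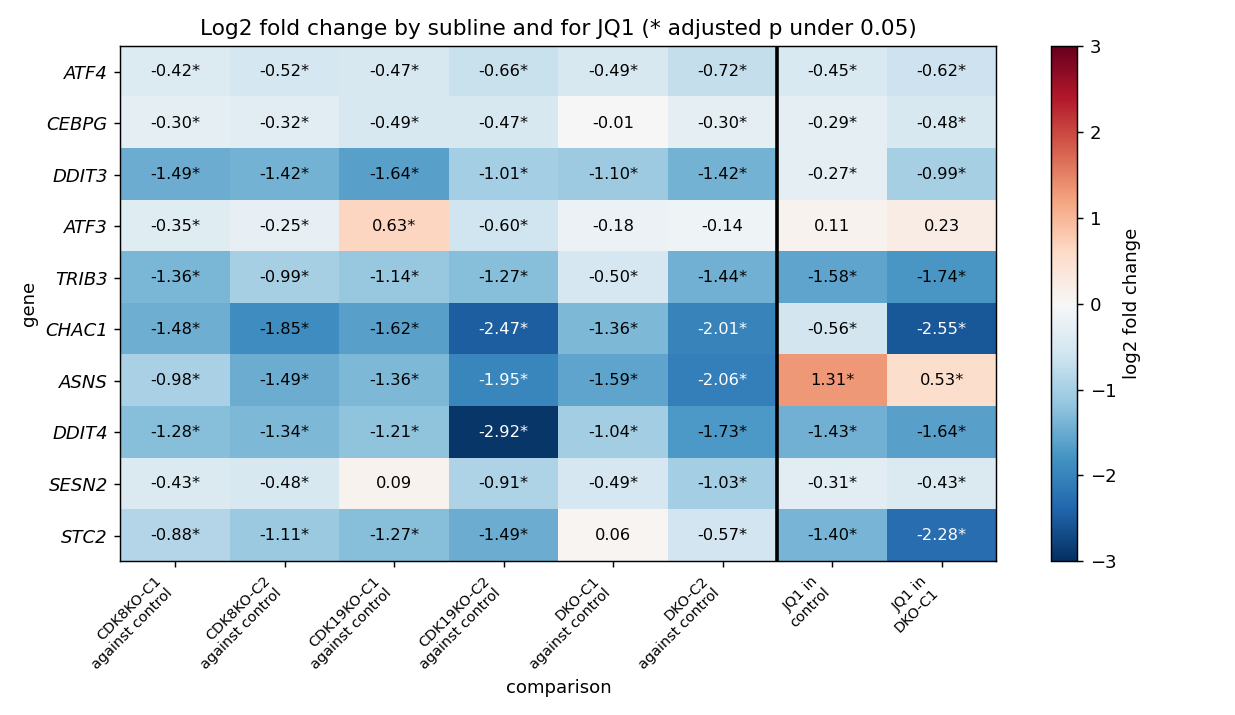
Log2 fold change of each gene (rows) in each subline against control and for JQ1 against no JQ1 (columns, right of the line), with colour for its size and an asterisk where the adjusted p of edgeR was under 0.05. The deepest value is DDIT4 in CDK19KO-C2 at -2.92, and the highest is ASNS for JQ1 in control cells at 1.31.

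ATF4 is the transcription factor at the centre of the response. Its RNA stood at 486, 524 and 522 CPM in the control libraries. In CDK8KO it was at 398, 382 and 369 CPM (C1) and 357, 367 and 343 (C2), in CDK19KO at 341, 370 and 392 (C1) and 320, 329 and 321 (C2), and in DKO at 370, 348 and 375 (C1) and 294, 336 and 299 (C2). Every knockout library was below every control library, and several of the sublines overlapped with one another. The log2 fold change was -0.47 ± 0.04 (SE) in CDK8KO, or 1.38-fold lower (edgeR, adjusted p = 4.78e-11). It was -0.57 ± 0.04 in CDK19KO (adjusted p = 2.99e-13) and -0.60 ± 0.04 in DKO (adjusted p = 5.73e-15). With JQ1, ATF4 was at 366, 367 and 388 CPM in control cells and at 241 and 234 in DKO-C1, the lowest of the 9 groups and clear of the next.

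CEBPG, a C/EBP protein that dimerises with ATF4, had the smallest of the called changes in DKO, and among the smallest in the single knockouts. It was at 91.8 to 99.0 CPM in control, at 76.8 to 81.5 in CDK8KO and at 66.7 to 72.9 in CDK19KO, with no overlap. In DKO-C1 it was at 92.9 to 100.3 CPM, overlapping control, and in DKO-C2 at 70.5 to 82.7, below it. The log2 fold change was -0.31 ± 0.05 in CDK8KO, -0.48 ± 0.05 in CDK19KO and -0.15 ± 0.05 in DKO (edgeR, adjusted p = 8.69e-06, 1.71e-09 and 0.00921). The DKO call was lost without control replicate 2 (-0.13, adjusted p = 0.0553).

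DDIT3 encodes CHOP, a C/EBP protein linked to cell death under lasting endoplasmic reticulum stress. It was at 15.4 to 16.0 CPM in the 3 control libraries and at 4.98 to 8.37 CPM in all 18 untreated knockout libraries, with a wide gap between them. The log2 fold change was -1.46 ± 0.09 in CDK8KO (2.75-fold lower), -1.32 ± 0.09 in CDK19KO and -1.26 ± 0.09 in DKO (edgeR, adjusted p = 3.19e-16, 3.67e-15 and 8.90e-16). MARS, whose exons overlap those of DDIT3 on the other strand and which encodes methionyl-tRNA synthetase, fell by 0.35, 0.63 and 0.43 on the log2 scale in the same comparisons.

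ATF3, a stress-induced repressor that both ATF4 and p53 are known to turn on, did not follow the others. The control libraries held 11.6, 14.4 and 13.5 CPM. CDK19KO-C1 held 21.3, 19.5 and 20.5 CPM, the highest group, and CDK19KO-C2 held 9.78, 7.86 and 8.42 CPM, the lowest. The 2 sublines of the same genotype thus lay on opposite sides of control, at a log2 fold change of 0.63 ± 0.08 and -0.60 ± 0.10 (edgeR, adjusted p = 1.09e-07 and 3.57e-06), but scaled by the ERCC spike-ins C1 was under control as well (-1.13), while the median gene stood at -1.79. Their mean against control was 0.02 ± 0.08 and was not called. In CDK8KO the log2 fold change was -0.30 ± 0.08 (adjusted p = 0.00243), with libraries from 9.70 to 11.7 CPM that overlapped control. In DKO it was -0.16 ± 0.08 and not called (adjusted p = 0.0768), and it was called without control replicate 1 (-0.25, adjusted p = 0.0137) and with protein-coding genes alone (-0.21, adjusted p = 0.02002).

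TRIB3, a pseudokinase that is induced by ATF4 and feeds back on it, stood at 92.3, 94.2 and 96.0 CPM in control. CDK8KO held 36.3, 35.9 and 37.7 CPM (C1) and 49.0, 45.5 and 47.8 (C2), and CDK19KO held 42.6, 39.7 and 45.6 (C1) and 39.8, 39.1 and 38.3 (C2). The DKO sublines differed, at 68.3, 66.3 and 64.9 CPM in C1 and 32.6, 39.1 and 32.1 in C2. All were below control, and DKO-C1 was above every other knockout library. The log2 fold change was -1.18 ± 0.05 in CDK8KO, -1.21 ± 0.05 in CDK19KO and -0.97 ± 0.05 in DKO (edgeR, adjusted p = 7.89e-21, 3.55e-21 and 1.18e-19).

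CHAC1, a cytosolic enzyme that breaks down glutathione, was among the deepest falls. Control libraries held 22.0, 26.7 and 25.4 CPM. CDK8KO held 9.76, 9.37 and 7.44 CPM (C1) and 6.62, 7.07 and 6.77 (C2), CDK19KO held 7.85, 7.47 and 8.74 (C1) and 4.89, 4.55 and 3.89 (C2), and DKO held 9.74, 9.54 and 9.62 (C1) and 5.81, 7.40 and 5.23 (C2). No knockout library reached 10 CPM, and in each genotype C1 was above C2. The fall was 3.17-fold in CDK8KO (log2 fold change -1.66 ± 0.08), 4.13-fold in CDK19KO (-2.05 ± 0.09) and 3.21-fold in DKO (-1.68 ± 0.08; edgeR, adjusted p = 9.06e-19, 6.20e-21 and 3.96e-20).

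ASNS makes asparagine from aspartate and glutamine and is a standard marker of ATF4 activity. It was at 7.60, 7.13 and 7.76 CPM in control (130 to 145 counts). CDK8KO held 2.04 to 4.88 CPM (median 3.11), CDK19KO 1.47 to 3.43 (median 2.44) and DKO 1.36 to 2.96 (median 2.25). No knockout library overlapped control. The log2 fold change was -1.24 ± 0.14, -1.65 ± 0.15 and -1.82 ± 0.15 (edgeR, adjusted p = 5.13e-09, 1.85e-11 and 2.89e-13). In DKO it was the deepest of the 10.

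DDIT4 and SESN2 both restrain the growth kinase complex mTORC1. DDIT4 was at 31.9, 31.1 and 33.0 CPM in control. It was at 13.9, 13.2 and 12.3 CPM in CDK8KO-C1 and 13.0, 12.5 and 12.4 in CDK8KO-C2. CDK19KO-C1 held 15.1, 12.8 and 13.5 CPM and CDK19KO-C2 only 5.05, 3.82 and 3.78, while DKO-C1 held 16.1, 15.2 and 15.3 and DKO-C2 10.1, 10.2 and 8.67. Every knockout library was below every control library, and CDK19KO-C2 was below all other untreated libraries, 7.57-fold under control (log2 fold change -2.92 ± 0.09, edgeR adjusted p = 1.94e-24). The genotype means gave -1.31 ± 0.06 in CDK8KO, -2.07 ± 0.07 in CDK19KO and -1.38 ± 0.06 in DKO (adjusted p = 1.08e-18, 2.10e-23 and 1.37e-20).

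SESN2, which senses leucine and is also a known p53 target, was at 40.8, 40.9 and 42.8 CPM in control and at 28.2 to 32.2 CPM (median 30.3) in CDK8KO. CDK19KO-C1 held 44.0, 43.1 and 45.7 CPM and CDK19KO-C2 held 24.1, 21.4 and 20.6. Here too the sublines lay on either side of control, with a log2 fold change of 0.09 ± 0.06 (not called, adjusted p = 0.213) in C1 and -0.91 ± 0.07 (adjusted p = 3.72e-14) in C2, and with ERCC scaling C1 was under control as well (-1.67). The genotype means gave -0.45 ± 0.05 in CDK8KO, -0.41 ± 0.05 in CDK19KO and -0.76 ± 0.05 in DKO (edgeR, adjusted p = 1.26e-08, 1.02e-07 and 6.13e-15). Beside these values stand those of a pair of genes that p53 is known to activate. CDKN1A, the cell cycle inhibitor p21, was at 528 ± 33.8 CPM (SD, n = 3) in CDK19KO-C1, 180 ± 5.46 in CDK19KO-C2 and 119 ± 8.28 in control. DDB2, a DNA damage recognition protein, was at 102 ± 7.06, 57.0 ± 1.14 and 38.8 ± 3.25 CPM. Both were above control in CDK19KO-C2 too, where ATF3 and SESN2 fell. These values are without ERCC scaling, under which the median gene in CDK19KO-C2 stood at -1.54. In the CDK8KO sublines DDB2 was at 48.2 ± 0.804 and 55.1 ± 2.45 CPM, above control, and CDKN1A did not follow it. CDKN1A was at 83.7, 88.7 and 89.9 CPM in CDK8KO-C1, below every control library. In CDK8KO-C2 it was at 123, 123 and 118 CPM, within the range of control. CDKN1A and DDB2 were chosen after their values were seen, and their part in the ATF3 and SESN2 values was not tested.

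STC2, a secreted glycoprotein that ATF4 and hypoxia are known to induce, was at 149, 182 and 173 CPM in control. CDK8KO held 89.6, 90.4 and 93.1 CPM (C1) and 77.8, 77.2 and 78.3 (C2), and CDK19KO held 72.1, 70.0 and 66.6 (C1) and 62.1, 59.9 and 57.8 (C2). DKO-C1 held 179, 169 and 176 CPM, within the range of control, and DKO-C2 held 108, 119 and 112. The single knockouts therefore lay at or under 93.1 CPM, below every DKO library and every control library. The log2 fold change was -0.999 ± 0.05 in CDK8KO, -1.38 ± 0.05 in CDK19KO and -0.26 ± 0.05 in DKO (edgeR, adjusted p = 3.68e-19, 3.11e-23 and 1.04e-05). The DKO value was the mean of -0.57 ± 0.06 in C2 and 0.06 ± 0.05 in C1, which was not called and was -0.96 with ERCC scaling.

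In DKO the changes did not add up to the sum of those in the single knockouts. This comparison sets DKO against other libraries, so library handling and genotype cannot be told apart in it. In it 1130 of 1346 processed pseudogenes were called lower. The control libraries enter it too, so control values that were high by chance would give both the falls and an excess. On the log2 scale 8 of 10 members were called higher in DKO than the sum of the CDK8KO and CDK19KO changes, and 0 lower, where 29.3% of all tested genes were called higher, 29.8% lower and 59.2% in either direction. The excess over the sum was 2.12 ± 0.06 for STC2, 2.03 ± 0.12 for CHAC1, 1.99 ± 0.10 for DDIT4, 1.52 ± 0.12 for DDIT3 and 1.41 ± 0.07 for TRIB3 (edgeR, adjusted p = 5.86e-27, 2.73e-17, 3.57e-20, 1.67e-13 and 2.05e-20). It was 1.07 ± 0.22 for ASNS, 0.63 ± 0.07 for CEBPG and 0.43 ± 0.06 for ATF4 (adjusted p = 5.94e-05, 3.35e-10 and 3.74e-08). ATF3 (0.12 ± 0.10) and SESN2 (0.10 ± 0.07) were not called. With ERCC scaling, under which the median gene stood at 1.98, 10 of 10 were called higher, as were 15484 of the 17198 tested genes, with 1037 lower. The members ran from 2.08 for SESN2 and 2.10 for ATF3 (edgeR, adjusted p = 1.38e-33 and 1.00e-28), both near the median gene, to 4.10 for STC2. A member with a like fall in all 3 genotypes gives such an excess, as ATF4 does with -0.47, -0.57 and -0.60. For STC2, CEBPG, TRIB3 and DDIT3 the DKO change was also the smallest of the 3. For TRIB3 and DDIT3 this rested on DKO-C1 (-0.50 and -1.10), since DKO-C2 was at -1.44 for TRIB3, deeper than either single knockout, and at -1.42 for DDIT3, deeper than CDK19KO.

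Between the single knockouts the differences were smaller than those of either from control for most members. 6 members were called higher in CDK8KO than in CDK19KO and 1 lower, where 23.6% of all tested genes were called higher, 23.4% lower and 47.1% in either direction. DDIT4 differed most (0.76 ± 0.07, edgeR adjusted p = 1.57e-11), followed by ASNS (0.42 ± 0.15), CHAC1 (0.38 ± 0.09) and STC2 (0.38 ± 0.04). The DDIT4 difference rested on CDK19KO-C2, with a mean of 4.22 CPM. CDK19KO-C1 was at 13.8 CPM, above the CDK8KO sublines C1 (13.1) and C2 (12.6). For STC2 and CEBPG (0.17 ± 0.04) the 6 libraries of each genotype did not overlap, and for the others they did. ATF3 was called lower (-0.32 ± 0.07), but turned to 0.11 when libraries were scaled by ERCC spike-ins, and DDIT3 and SESN2, which were not called, turned from -0.13 to 0.29 and from -0.04 to 0.39. The ATF3 call rested on CDK19KO-C1, with a mean of 20.4 CPM. CDK19KO-C2 was at 8.68 CPM, below the CDK8KO sublines C1 (10.3) and C2 (11.1). TRIB3 did not pass the test, and its difference of 0.03 had a 95% interval of -0.06 to 0.12. With ERCC scaling, under which the median gene stood at 0.44, 9 members were called higher and 0 lower, TRIB3 (0.46, adjusted p = 7.13e-05), DDIT3 (adjusted p = 0.0392) and SESN2 (adjusted p = 0.000909) among them. Of all tested genes 12156 were then called higher and 421 lower. The call of ASNS was lost without CDK19KO-C1 replicate 3, CDK19KO-C2 replicate 1, CDK8KO-C1 replicate 1 or CDK8KO-C2 replicate 2 (0.30 to 0.37, edgeR adjusted p = 0.0563 to 0.106). That of ATF4 was lost without CDK19KO-C1 replicate 1, CDK8KO-C1 replicate 1 or CDK8KO-C2 replicate 2 (0.07 to 0.09, adjusted p = 0.0671 to 0.0944).

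The 2 sublines of a genotype differed in many members. In CDK19KO 7 were called higher in C1 than in C2 and 1 lower (DDIT3, -0.63 ± 0.12), where 23.8% of all tested genes were called higher, 24.2% lower and 48.0% in either direction. The largest were DDIT4 (1.71 ± 0.11), ATF3 (1.23 ± 0.09) and SESN2 (1.01 ± 0.07; edgeR, adjusted p = 3.45e-16, 4.85e-14 and 1.38e-15). In DKO 7 were called higher in C1 and 0 lower, where only 3.67% of all tested genes were called higher, 5.75% lower and 9.42% in either direction. TRIB3 led with 0.94 ± 0.06 (adjusted p = 1.98e-14), then DDIT4 (0.69 ± 0.09), CHAC1 (0.65 ± 0.12), STC2 (0.63 ± 0.06) and SESN2 (0.53 ± 0.07). In CDK8KO CHAC1 (0.38 ± 0.12) and STC2 (0.23 ± 0.06) were called higher in C1 and TRIB3 (-0.37 ± 0.06) lower, where 11.5% of all tested genes were called higher, 9.63% lower and 21.1% in either direction. CHAC1 and STC2 were thus called higher in C1 in all 3 genotypes, although the C1 and C2 names tie no sublines together across genotypes. With ERCC scaling 4 members were called higher in C1 in CDK19KO, 1 in DKO (TRIB3) and 0 in CDK8KO, and ATF4, TRIB3 and STC2 changed sign in CDK19KO (-0.04, -0.10 and -0.00034). Over all genes the calls then went from 4092 higher and 4155 lower to 735 and 4474 in CDK19KO, from 631 and 989 to 63 and 903 in DKO, and from 1980 and 1656 to 706 and 260 in CDK8KO.

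Most of the group was lower in control cells with JQ1. 8 members were called lower and 1 higher, with a median log2 fold change of -0.38, where 29.1% of all tested genes were called lower, 27.0% higher and 56.0% in either direction. TRIB3 fell from 92.3, 94.2 and 96.0 CPM to 30.6, 30.5 and 33.6, which is 2.99-fold (log2 fold change -1.58 ± 0.06, edgeR adjusted p = 2.98e-22). DDIT4 fell to 12.8, 11.6 and 11.2 CPM (-1.43 ± 0.08, adjusted p = 1.11e-17) and STC2 to 61.5, 61.5 and 67.7 CPM (-1.40 ± 0.06, adjusted p = 2.21e-21). None of these libraries overlapped untreated control.

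CHAC1 fell to 15.9, 17.0 and 17.4 CPM (-0.56 ± 0.09, adjusted p = 1.36e-06), and so did ATF4 (-0.45 ± 0.05), SESN2 (-0.31 ± 0.06) and CEBPG (-0.29 ± 0.06). DDIT3 was at 14.9, 13.2 and 11.1 CPM with JQ1 (-0.27 ± 0.09, edgeR adjusted p = 0.0122), and this call rested on 1 library: without replicate 3 of the JQ1 group it was -0.16 (adjusted p = 0.146). ATF3 was not called (0.11 ± 0.09) and turned to -0.26 with ERCC scaling.

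ASNS went the other way. It rose from 7.60, 7.13 and 7.76 CPM to 17.8, 17.5 and 20.3 CPM (308 to 357 counts), which is 2.47-fold (log2 fold change 1.31 ± 0.13, edgeR adjusted p = 3.30e-11), and 0.94 with ERCC scaling (adjusted p = 8.08e-07). AC079781.5, the gene whose exons overlap ASNS on its strand, had 5 to 25 counts in a library. The order of the 9 groups for ASNS began with control cells with JQ1, then untreated control, each clear of the next. From the third group on, neighbours in the order overlapped.

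In DKO-C1 the same 8 members were lower with JQ1, and the median log2 fold change was -0.80, where 25.4% of all tested genes were called lower, 24.9% higher and 50.3% in either direction. CHAC1 fell from 9.74, 9.54 and 9.62 CPM to 1.59 and 1.68 CPM (29 and 31 counts), or 5.87-fold (log2 fold change -2.55 ± 0.18, edgeR adjusted p = 8.69e-15). STC2 fell from 179, 169 and 176 CPM to 37.4 and 34.7, or 4.85-fold (-2.28 ± 0.07, adjusted p = 1.20e-24). TRIB3 reached 20.05 and 19.8 CPM (-1.74 ± 0.08), DDIT4 4.87 and 5.10 CPM (-1.64 ± 0.11) and DDIT3 3.61 and 3.74 CPM (-0.99 ± 0.15). ATF4 (-0.62 ± 0.06), CEBPG (-0.48 ± 0.07) and SESN2 (-0.43 ± 0.08) fell too.

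ASNS was at 3.18 and 4.01 CPM with JQ1 in DKO-C1, above its untreated 2.96, 2.29 and 2.20 CPM, and was called higher (0.53 ± 0.22, edgeR adjusted p = 0.0473). That call sat at the threshold and was lost with ERCC scaling (0.25, adjusted p = 0.463), limma voom (0.53, 0.0532), a minimum of 5 CPM (0.51, 0.0559) and the replicate block (0.51, 0.0687). It was lost as well without DKO-C1 replicate 2 or 3 or the JQ1 replicate a (0.36 to 0.47, adjusted p = 0.119 to 0.342). ATF3 was at 13.3 and 14.04 CPM and was not called (0.23 ± 0.10, adjusted p = 0.0530), and it turned to -0.04 with ERCC scaling.

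The JQ1 response itself differed between DKO-C1 and control for 3 members, all called lower, where 4.70% of all tested genes were called lower, 3.90% higher and 8.59% in either direction. The difference was -1.999 ± 0.21 for CHAC1, -0.87 ± 0.09 for STC2 and -0.72 ± 0.17 for DDIT3 (edgeR, adjusted p = 5.10e-09, 5.14e-09 and 0.00490). For STC2 and DDIT3 it was not called with ERCC scaling (-0.76 and -0.64, adjusted p = 0.0880 and 0.489). The difference for TRIB3 was -0.16, with a 95% interval of -0.35 to 0.03, and for DDIT4 -0.21 (-0.49 to 0.07). For ASNS it was -0.78 ± 0.26 and just missed the call (adjusted p = 0.0539), which it passed with DESeq2 (-0.77, adjusted p = 0.0441) and with protein-coding genes alone (-0.78, adjusted p = 0.0478). In a fit of only the 11 libraries compared, 5 members were called lower, ASNS (-0.83) and ATF4 (-0.22) being added. Calls over all genes moved the same way in that fit, from 670 higher and 808 lower to 457 and 1241.

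**Figure D3:**
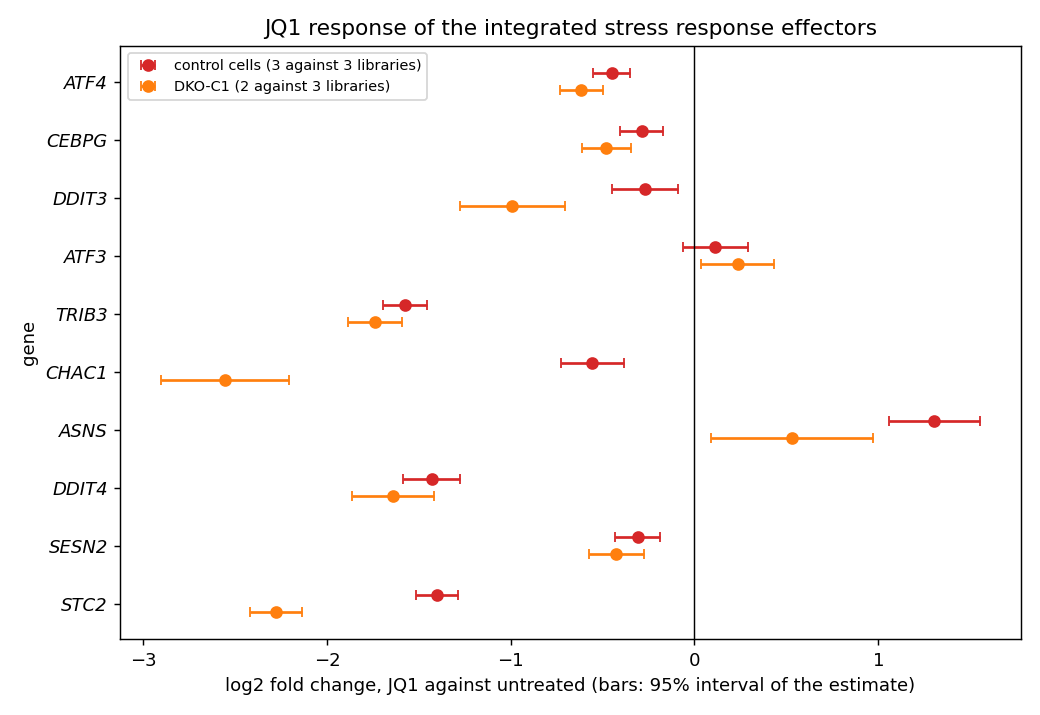
Log2 fold change with JQ1 (horizontal axis) for each gene in control cells and in DKO-C1, with bars for the 95% interval of the estimate. The intervals of CHAC1, STC2, DDIT3 and ASNS are apart, and ASNS alone lies above 0 with both intervals.

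With JQ1 on both sides, DKO-C1 held less RNA than control for 9 of 10 members, of which CEBPG (-0.21) lost its call without replicate 3 of control with JQ1 or without either DKO-C1 library with JQ1 (adjusted p = 0.0624 to 0.141), where 22.4% of all tested genes were called lower, 24.3% higher and 46.7% in either direction. CHAC1 was 10.2-fold lower (log2 fold change -3.35 ± 0.16), ASNS 5.15-fold (-2.36 ± 0.17) and DDIT3 3.54-fold (-1.82 ± 0.14; edgeR, adjusted p = 9.44e-20, 5.41e-15 and 2.53e-14). STC2, which did not differ beyond its spread between untreated DKO-C1 and control, was 1.76-fold lower (-0.82 ± 0.07, adjusted p = 3.71e-12). DKO-C1 with JQ1 was the lowest of the 9 groups for ATF4, CEBPG, DDIT3, TRIB3, CHAC1 and STC2, and for all but CEBPG it did not overlap the next lowest. That group has only 2 libraries, and the share of all tested genes that do the same was not counted. Nothing particular to the members is therefore read from this order.

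Genes of the wider pathway gave the setting. Their values, here and for the lists that follow, are without ERCC scaling, and values with it are not given. Of 27 tested genes on a list of other ATF4 targets, 21 were called lower and 1 higher in CDK8KO (median -0.38), 22 and 2 in CDK19KO (-0.67), 18 and 5 in DKO (-0.36), 22 and 3 with JQ1 in control (-0.38) and 22 and 1 with JQ1 in DKO-C1 (-0.60). Of all tested genes 21.0%, 22.0%, 32.1%, 29.1% and 25.4% were called lower in these comparisons. The genes named next are the called ones of at least 5 CPM with the largest changes, and genes of the list outside that rule went further: its values ran from -0.99 to 0.15 in CDK8KO, from -2.48 to 0.58 in CDK19KO, from -0.91 to 1.51 in DKO and from -6.32 to 0.45 with JQ1 in control. In CDK8KO those named are SLC7A11, the cystine transporter (-0.88 ± 0.06), PCK2, mitochondrial PEP carboxykinase (-0.76 ± 0.05), and PSAT1, of serine synthesis (-0.70 ± 0.04). In CDK19KO they are PCK2 (-1.47 ± 0.06), PHGDH, the first enzyme of serine synthesis (-1.19 ± 0.04), and PSAT1 (-1.17 ± 0.04). In DKO they are CTH, which makes cysteine (-0.91 ± 0.09), PSAT1 (-0.84 ± 0.04) and the stress cytokine GDF15 (-0.79 ± 0.06). With JQ1 in control they are the glycine transporter SLC6A9 (-1.40 ± 0.10) and SLC7A11 (-1.14 ± 0.08). The excess of DKO over the sum was called higher for 23 and lower for 3 of the 27, and the JQ1 difference lower for 12 and higher for 0, where 29.3% and 29.8% of all tested genes were called for the first and 4.70% and 3.90% for the second.

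The chaperone arm of the unfolded protein response, driven by ATF6 and XBP1, is the other RNA programme of this stress. Of 18 tested genes, 4 were called lower and 3 higher in CDK8KO, 11 and 0 in CDK19KO, 1 and 12 in DKO, and 5 and 8 with JQ1 in control. Of all tested genes 21.0% were called lower and 19.5% higher in CDK8KO, 22.0% and 21.0% in CDK19KO, 32.1% and 29.5% in DKO, and 29.1% and 27.0% with JQ1 in control, so that the count in CDK8KO is near the background. In DKO DNAJB9 (0.59 ± 0.08) and PDIA4 (0.57 ± 0.04) rose, and in CDK19KO HERPUD1 (-0.57 ± 0.05) and XBP1 itself (-0.49 ± 0.04) fell. These rises are without ERCC scaling, under which the median gene in DKO stood at -0.92. The medians of both lists in DKO were -0.36 for the other ATF4 targets and 0.28 for the chaperones.

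Of 11 genes for eIF2 kinases, phosphatase subunits and their regulators, 4 were called higher and 5 lower in CDK8KO, 3 and 3 in CDK19KO, 3 and 4 in DKO, and 3 and 3 with JQ1 in control. The shares of all tested genes called in either direction were 40.5%, 43.0%, 61.6% and 56.0% in that order, so that the counts in DKO and with JQ1 are near the background. PPP1R15A (GADD34), the inducible phosphatase subunit that ends the response, was higher in CDK8KO (0.49 ± 0.06), CDK19KO (0.33 ± 0.06) and DKO (0.68 ± 0.06), opposite to the effectors at this scaling. EIF2AK3 (PERK), the kinase of the endoplasmic reticulum, was higher in CDK8KO (0.42 ± 0.08) and DKO (0.81 ± 0.08). With ERCC scaling the median gene stood at -1.23 in CDK8KO, -1.67 in CDK19KO and -0.92 in DKO. That is further below 0 than either gene rose above it. OMA1, the mitochondrial protease that relays stress to the response, was lower in CDK8KO (-0.56 ± 0.07) and CDK19KO (-0.66 ± 0.07). The 5 subunits of eIF2B, the exchange factor that phosphorylated eIF2 blocks, moved by no more than 0.37 on the log2 scale in the knockouts, with 3 lower and 1 higher in CDK8KO, 0 and 3 in CDK19KO and 3 and 0 in DKO. With JQ1 in control 0 were called lower and 4 higher, the largest change being that of EIF2B2 (0.43 ± 0.06). Beside the shares of all tested genes above, the count in DKO is near the background.

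Relatives of the members, their partners and the pathway that DDIT4 and SESN2 act on are given against the same background, in which 40.5% of all tested genes were called in CDK8KO, 43.0% in CDK19KO, 61.6% in DKO and 56.0% with JQ1 in control. Of 9 tested paralogs, 4 were called lower and 3 higher in CDK8KO, 4 and 2 in CDK19KO, 5 and 1 in DKO, and 3 and 5 with JQ1 in control. SESN1, a p53-driven sestrin, was higher in CDK19KO (0.66 ± 0.08) and lower in DKO (-0.32 ± 0.09). Its rise in CDK19KO came from C1 (1.29), as C2 was near control (0.03). TRIB1 was lower in DKO (-1.13 ± 0.04) and with JQ1 (-0.95 ± 0.05), and SESN3 was higher with JQ1 (1.19 ± 0.16). Of 12 tested bZIP partners, 5 were called lower and 0 higher in CDK8KO, 3 and 2 in CDK19KO, 2 and 4 in DKO, and 5 and 5 with JQ1. JUN was higher in DKO (1.34 ± 0.12) and with JQ1 (1.55 ± 0.13), and FOS with JQ1 (2.59 ± 0.16). Of 15 tested regulators of mTORC1, through which DDIT4 and SESN2 act, 5 were called lower and 2 higher in CDK8KO, 4 and 5 in CDK19KO, 8 and 1 in DKO, and 6 and 7 with JQ1. RHEB, which activates mTORC1, was higher in DKO without ERCC scaling (0.88 ± 0.05). Several of these counts are near the background, among them those of bZIP partners in CDK8KO and CDK19KO and of paralogs and mTORC1 regulators in DKO. Nothing is read from any of the counts of these lists.

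**Figure D4:**
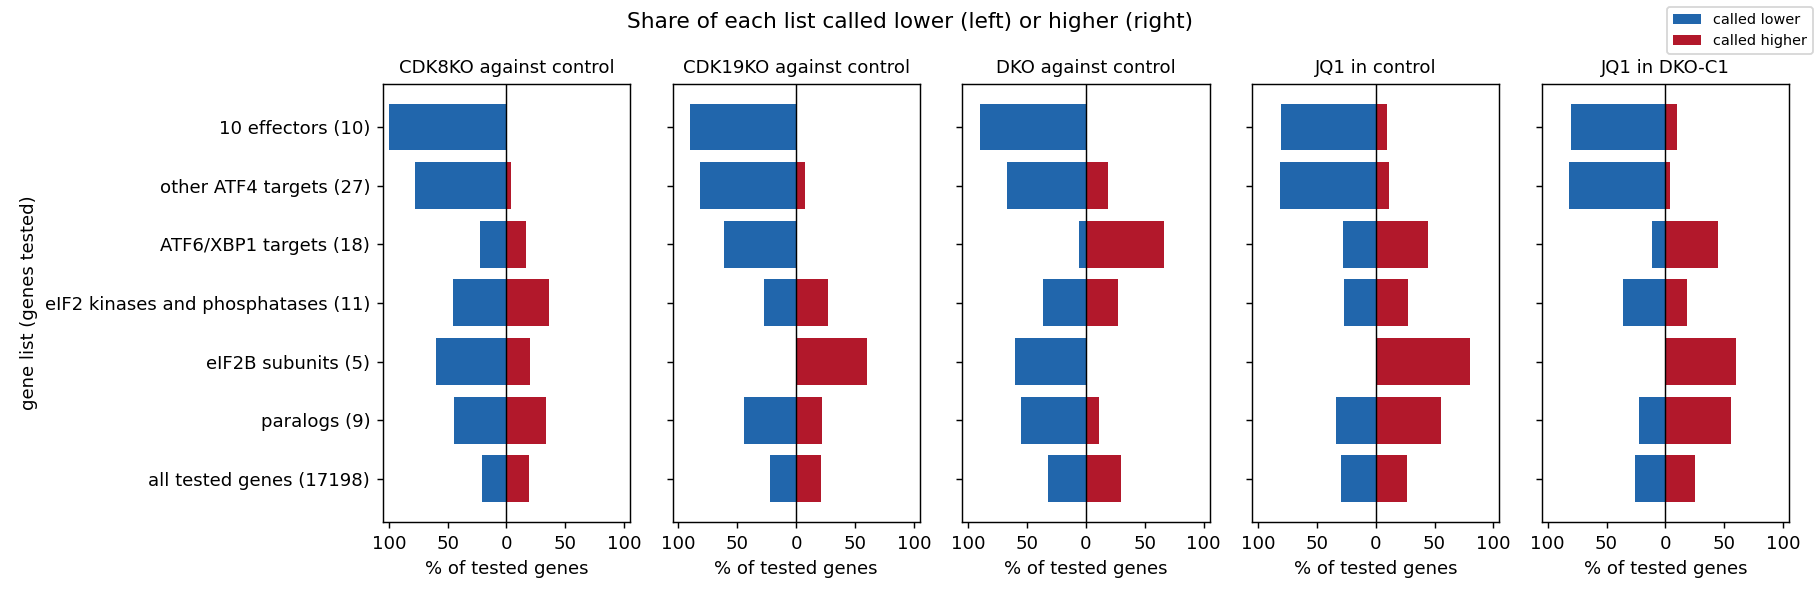
Share of the tested genes of each list called lower (left, blue) or higher (right, red), in percent, in 5 comparisons, with the number tested in brackets and all tested genes in the last row. The 10 effectors and the other ATF4 targets lie mostly to the left in every panel, and the ATF6 and XBP1 targets to the right in DKO.

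Group means were taken of log2 CPM after 1 was added to each CPM. Across the 9 group means, CHAC1 and ATF4 lay closest to the mean of the other 9 members (Pearson's r 0.962 and 0.923) and DDIT4 next (0.887). ASNS (0.421) and ATF3 (0.172) lay farthest. CHAC1 had the widest range, 3.28 on the log2 scale with 1 added, and CEBPG the narrowest, 0.49. The added 1 narrows the ranges of members at low CPM, such as CHAC1 and ASNS. Of 10867 other genes, those whose group means were most like the members' mean were SLC3A2 (0.972) and SLC7A5 (0.925), which form an amino acid transporter, PSAT1 (0.950), GPT2 (0.929), the tRNA synthetases YARS (0.947), GARS (0.939), WARS (0.939) and AARS (0.931), and WDR45 (0.941) and MAK16 (0.935). These are descriptions over 9 groups that share control libraries and sublines.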

How the data were processed

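RNA of 26 HCT116 libraries was sequenced as paired reads of 100 bases, per the labels. The submitters' processing notes name STAR 2.5.2, featureCounts, Subread 1.6.3 and build hg38. What the authors deposited is 1 table of counts, whole and not normalised, for 58039 genes and 92 ERCC transcripts. Annotation release and strand setting: not given in the sources used here. Symbols and lengths were matched to GENCODE v29 (GRCh38), in which 53995 IDs have the same symbol. Of the columns, 22 were matched to a sample. 4 were matched to a group only (3 as DKO-C2, since their clone number is in no title, and 1 as DKO-C1 with JQ1) and are named by letters.

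edgeR 4.0.16 (R 4.3.3) was fitted to all 26 libraries with 9 group means, TMM factors (0.956 to 1.02) and filterByExpr (minimum count 10, minimum total 15), which left 17198 genes. The quasi-likelihood test was two-sided, with Benjamini-Hochberg adjustment over all tested genes and calls under 0.05. Genotypes are means of both sublines. SE is the absolute log2 fold change over the square root of F, and 95% intervals are the estimate from the SE. The 10 members, the gene lists and the comparisons were chosen with earlier results of these data known. From each list up to 4 called genes with the largest change and at least 5 CPM could be named. Of the 27 tested ATF4 targets, 1 of 28 listed was too low to test.

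The 25 pairs of libraries within groups differed by more than counting error (chi-square per degree of freedom 1.38 to 11.6), so none was a repeat deposit. Tested on simulated data with 17198 genes, the fit recovered 66% of genes changed 1.25-fold, 78% at 1.5-fold, 82% at 2-fold and 98% at 4-fold for CDK8KO. It recovered 46%, 60%, 76% and 96% for JQ1 in control, and 38%, 66%, 78% and 90% for JQ1 in DKO-C1. Of the calls 4.71%, 6.71% and 9.33% were false, the last 2 above the nominal level. Far more genes were called in the real comparisons (40.5%, 56.0% and 50.3% in that order), so the simulated shares do not carry over to them. The level of recovery that the test was required to reach was lowered after its first result for JQ1 in DKO-C1 was seen.

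Alternatives were DESeq2 size factors, ERCC factors (ratios of total ERCC counts), DESeq2 1.42.0, limma voom (3.58.1), no filter, at least 5 CPM, a replicate block, only the libraries compared, and each library left out. Protein-coding genes alone, the members without ASNS, and both scalings for the sublines were added after seeing the data. Same-numbered libraries did not deviate together (median r 0.00513 over 63 pairs, highest 0.0747), so the numbers do not pair the libraries. In the block fit the 4 columns without a number stayed in, with no block effect of their own.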

Additional observations from a re-analysis of the deposited data

Results flagged for a closer look

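On the log2 scale the change of 8 members in DKO differed, by the test of the interaction, from the sum of the changes in CDK8KO and CDK19KO: ATF4 by 0.43, CEBPG by 0.63, DDIT3 by 1.52, TRIB3 by 1.41, ASNS by 1.07, CHAC1 by 2.03, DDIT4 by 1.99 and STC2 by 2.12. The response to JQ1 differed between DKO-C1 and control for DDIT3 (-0.72), CHAC1 (-1.999) and STC2 (-0.87).

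The sublines of a genotype differed, as C1 minus C2, in CDK8KO for TRIB3 (-0.37), CHAC1 (0.38) and STC2 (0.23). In CDK19KO they differed for ATF4 (0.18), DDIT3 (-0.63), ATF3 (1.23), ASNS (0.59), CHAC1 (0.85), DDIT4 (1.71), SESN2 (1.01) and STC2 (0.22). In DKO they differed for ATF4 (0.23), CEBPG (0.28), TRIB3 (0.94), CHAC1 (0.65), DDIT4 (0.69), SESN2 (0.53) and STC2 (0.63).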

How the results depend on the processing

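Of 1950 values of single members under alternatives, 1885 kept their direction and their side of the threshold, 31 lost the call, 18 gained it and 16 changed sign. Of 426 counts of called members, 408 stayed within 1.5 times. With ERCC factors the sign changed for ATF3 in CDK19KO (-1.64), with JQ1 in control (-0.26) and in DKO-C1 (-0.038), and in CDK8KO against CDK19KO for ATF3 (0.11), DDIT3 (0.29) and SESN2 (0.39). It changed too for ATF3 (-1.13) and SESN2 (-1.67) in CDK19KO-C1, STC2 in DKO-C1 (-0.96), DDIT3 between the CDK8KO sublines (0.0050), and ATF4 (-0.044), TRIB3 (-0.10) and STC2 (-0.00034) between the CDK19KO sublines. With DESeq2 size factors the sign changed for CEBPG between the CDK19KO sublines (0.0037), which was called under neither scaling, and no other value changed its call. With each library left out, ATF3 in CDK19KO ran from -0.068 to 0.086, below 0 without control replicate 1 or CDK19KO-C2 replicate 1. With ERCC factors the members called lower fell to 0 in CDK8KO against CDK19KO, 1 for the JQ1 difference and 0 for CDK8KO-C1 against C2. Those called higher then fell to 0 for CDK19KO-C1 against control, 0 for CDK8KO-C1 against C2, 4 for CDK19KO-C1 against C2, 1 for DKO-C1 against C2 and 0 for JQ1 in DKO-C1. JQ1 in DKO-C1 had 0 members called higher as well with at least 5 CPM, limma voom, the replicate block or without ASNS, had 0 to 1 with each library left out, and had 2 in a fit of only the libraries compared. JQ1 in control had 0 called higher without ASNS. In a fit of only the libraries compared, 5 were called lower for the JQ1 difference, as were 1241 of all genes, with 457 higher. The replicate block changed 2 of 108 values, ASNS for JQ1 in DKO-C1 (0.51, adjusted p = 0.0687) and the count with it. 8 of 21 numbered libraries correlated best with libraries of their own number. The cause of these changes was not tested. CEBPG for DKO-C1 under JQ1 lost its call without any of 3 libraries (-0.13 to -0.21). Counts limit ASNS and, in DKO-C1 with JQ1, CHAC1 most.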
